A study of Mus musculus with 10 samples.

Results

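The genes described here handle cellular iron in microglia, the resident macrophages of the brain: 9 genes for storage (Fth1, Ftl1), export (Slc40a1), import and movement across membranes (Tfrc, Slc11a1, Slc11a2), release from haem (Hmox1) and regulation (Ireb2, Aco1). They were chosen by gene name out of the 40789 genes of the deposited count table, with earlier results of the same LPS against saline comparison known, so their levels and differences are given as a description and support nothing about the group as a group. All 9 were found and all 9 passed the filter on low counts, which 13793 genes passed.

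The 5 mice of the LPS group received 4 mg/kg lipopolysaccharide, a bacterial surface molecule sensed by innate immune cells, by intraperitoneal injection, and the 5 mice of the saline group received saline. Every mouse of both groups was a female of 2 to 3 months on the C57BL6/J background and was CX3CR1+/egfp, with green fluorescent protein in place of one copy of the fractalkine receptor gene, which other myeloid cells express too. Cells bright for the reporter were sorted from the cortex 24 hours after the injection, and each library came from 1 mouse. The study asks how microglial RNA in individual mice differs between LPS and saline.

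A cell takes up transferrin-bound iron through the transferrin receptor, moves it out of vesicles with divalent metal transporters, stores it inside ferritin shells and releases it through ferroportin. Macrophages also recover iron from haem by means of haem oxygenase, and in inflammation they are known for keeping iron inside the cell. The iron regulatory proteins, encoded by Aco1 and Ireb2, bind a hairpin called the iron-responsive element when iron is scarce. A hairpin in a 5′ UTR then blocks translation, as in ferritin and ferroportin mRNA, while hairpins in the 3′ UTR protect the transferrin receptor mRNA from decay.

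These hairpins, as found by the search below, are shown because members of opposite direction carry them. The sequences are written 5′ to 3′ as DNA with the hexanucleotide loop in capitals, and come from GENCODE M21 transcripts on GRCm38.
Fth1, 5′ UTR, chr19:9982733-9982759, plus strand: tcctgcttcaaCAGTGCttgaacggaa
Ftl1, 5′ UTR, chr7:45459780-45459806, minus strand: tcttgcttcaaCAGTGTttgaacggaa
Slc40a1, 5′ UTR, chr1:45925466-45925492, minus strand: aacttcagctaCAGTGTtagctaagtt
Tfrc, 3′ UTR, chr16:32631220-32631246, plus strand: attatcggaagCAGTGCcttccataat
Tfrc, 3′ UTR, chr16:32631599-32631625, plus strand: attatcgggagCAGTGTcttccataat
Tfrc, 3′ UTR, chr16:32631664-32631690, plus strand: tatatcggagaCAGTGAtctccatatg
Tfrc, 3′ UTR, chr16:32631711-32631737, plus strand: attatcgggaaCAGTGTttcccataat

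On the transcript strand, the search asked for the loop letters CAGTG followed by A, C or T and an upper stem of 5 paired bases. It also asked for an unpaired C below that stem and at least 3 of 5 paired positions in the lower stem. This form occurred in the 5′ UTR of 8 of 20045 genes (0.0399%) and 3 of the 9 members, and in the 3′ UTR of 24 of 20831 genes (0.115%) and 1 member, Tfrc. The hairpins began at base 88 of 224 in the 5′ UTR of Fth1, at base 79 of 253 in that of Ftl1 and at base 91 of 319 in that of Slc40a1. The 4 hairpins of this form in Tfrc began at bases 884, 1263, 1328 and 1375 of a 3′ UTR of 2458 bases. Elements of a looser form were not searched for. One transcript form of Slc11a2 is also known for an element in its 3′ UTR, which this strict form did not match. Protein binding was not measured, and RNA counts do not show translation.

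Total counts per library were 12928007 to 15332121 in LPS and 11577295 to 15274421 in saline (two-sided exact permutation test, p = 0.841, n = 5 each). Of the 8 microglial markers all were detected, and their summed level was 14652 to 23773 CPM in LPS and 44662.5 to 51597.5 CPM in saline (exact permutation p = 0.00794, the smallest that 5 against 5 mice allow). P2ry12 averaged 2419 CPM in LPS and 21585 CPM in saline. Summed monocyte markers were 78.1 to 219 CPM in LPS and 14.4 to 22.8 CPM in saline, and neutrophil markers 2.01 to 32.4 CPM in LPS and 0.162 to 1.12 CPM in saline, with Camp and Ly6g under 1 CPM. Of the microglial markers 1 was called higher and 5 lower, and of 6 tested monocyte markers 3 were called higher and 2 lower. The monocyte sum in LPS came mostly from Ms4a4c (99.4 CPM in LPS and 4.19 CPM in saline) and Fn1 (34.4 and 0.198 CPM). The 2 called lower were Ccr2 (2.45 CPM in LPS and 10.2 CPM in saline) and Spn (0.257 and 1.27 CPM), and Ly6c2 was under 1 CPM in every library. Border-associated macrophage markers were 722 to 1869 CPM in LPS and 583 to 877 CPM in saline, mostly Stab1, with Cd163 and Lyve1 under 1 CPM. Endothelial markers were 4.85 to 10.6 CPM in LPS and 48.2 to 72.4 CPM in saline, almost all from Pecam1 (7.05 CPM in LPS and 54.1 CPM in saline), with Cldn5 at 0 and 4 of the 6 genes under 1 CPM in every library. Erythroid markers were at most 2.47 CPM in LPS and 2.43 CPM in saline, astrocyte markers 9.53 and 9.59 CPM and neuron markers 6.44 and 8.40 CPM, and oligodendrocyte markers were 90.2 to 118 CPM in LPS and 103 to 129 CPM in saline. These other cells also express several of the iron genes, and their part in the differences below was not tested. In bulk samples of sorted cells, fewer cells of a type and less RNA per cell cannot be told apart. Genes with short transcripts took a larger share of the counts in LPS: the shortest 20% of genes held 20.2 to 28.9% of counts in LPS and 12.4 to 17.5% in saline (exact permutation p = 0.00794). A fit with the length trend of each library removed is given below for every member and for those other genes named with it.

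Ferritin RNA was higher and ferroportin RNA lower in LPS, with no overlap between mice for Fth1, Ftl1 and Slc40a1. Haem oxygenase (Hmox1) and the phagosomal metal transporter Slc11a1 were also higher in every LPS mouse than in every saline mouse. Aco1 was lower in every LPS mouse, Ireb2 was lower with overlap, and Tfrc and Slc11a2 were not called. A gene was called where the adjusted p of edgeR's quasi-likelihood test over all 13793 genes was under 0.05. Of the 9 members, 4 were called higher, where 22.4% of all genes tested were, and 3 were called lower, where 22.5% were. Both directions together made 7 calls of 9, against 45.0% of all genes, and 6 members had groups that did not overlap, against 29.8%. The median log2 fold change was 0.51 over the members and 0.0014 over all genes tested. The members were picked with this contrast known, so nothing is read from these shares.

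**Figure D1:**
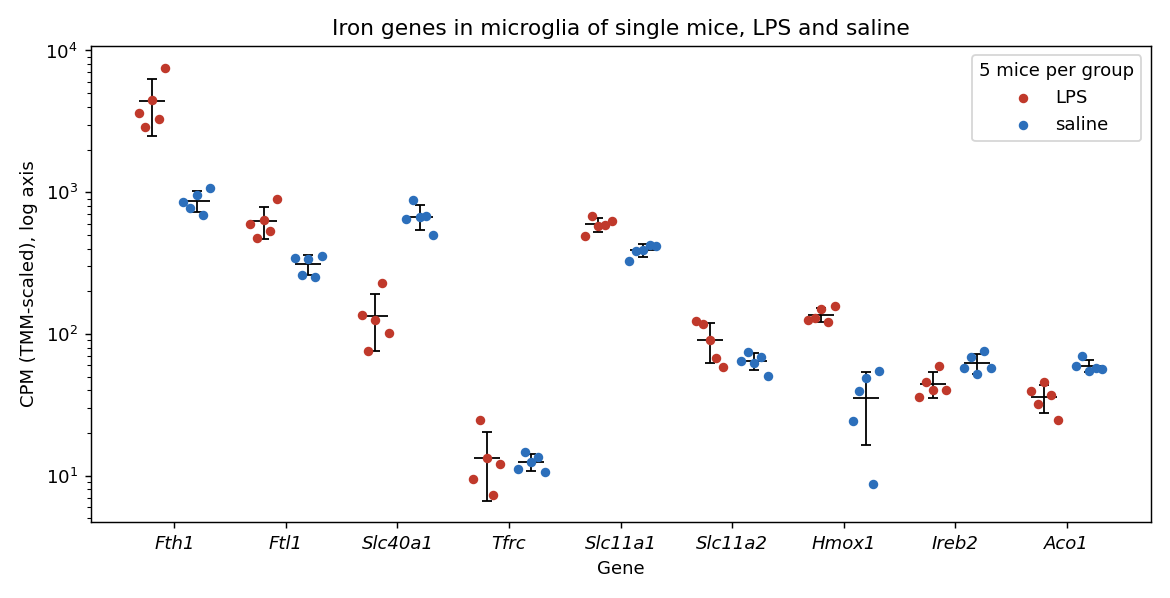
Level of each iron gene in single mice. The vertical axis is CPM after TMM scaling on a log axis, each point is 1 mouse, and LPS stands left of saline for each gene. The groups are apart for Fth1, Ftl1, Slc40a1, Slc11a1, Hmox1 and Aco1, and overlap for Tfrc, Slc11a2 and Ireb2.

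Fth1 (Entrez gene 14319, chromosome 19, 9980600 to 9985111 on GRCm38) encodes the heavy ferritin chain, which oxidises iron as it enters the shell. It had 3637, 2898, 4445, 3287 and 7573 CPM (raw counts scaled to library size and TMM factors) in LPS mice 1 to 5, against 855, 774, 949, 691 and 1064 CPM in saline mice 1 to 5. Every LPS mouse lay above every saline mouse, and LPS mouse 5 stood well above the others of its group. The mean was 4368 ± 1880 CPM in LPS and 867 ± 146 CPM in saline (SD, n = 5 each), a 5.04-fold higher level (log2 fold change 2.33 ± 0.27 SE, edgeR adjusted p = 5.73e-06). Without LPS mouse 5 the log2 fold change was 2.05, and with the length trend removed 1.89.

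Ftl1 (Entrez gene 14325, chromosome 7, 45457944 to 45459886) encodes the light ferritin chain, which helps the iron core to form. It had 598, 472, 636, 534 and 889 CPM in LPS mice 1 to 5, against 345, 262, 336, 253 and 355 CPM in saline mice. The groups did not overlap, and LPS mouse 5 was again the highest. The mean was 626 ± 160 CPM in LPS and 310.3 ± 48.4 CPM in saline, a 2.02-fold higher level (log2 fold change 1.01 ± 0.19, edgeR adjusted p = 0.000449). Ftl1 was among the shortest 8.70% of genes by relative length, and with the length trend removed its log2 fold change was 0.39 (edgeR adjusted p = 0.0107).

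The heavy chain stood higher relative to the light chain in every LPS mouse. The ratio of Fth1 to Ftl1, taken from the deposited RPKM, which divides by gene length, was 3.91, 3.94, 4.49, 3.95 and 5.47 in LPS mice 1 to 5, against 1.59, 1.89, 1.81, 1.75 and 1.93 in saline mice. The ratio averaged 4.35 ± 0.67 in LPS and 1.79 ± 0.133 in saline, with no overlap. Both genes together took 0.339 to 0.786% of all counts in LPS and 0.101 to 0.145% in saline. Both ferritin genes have processed copies elsewhere in the genome with which their reads can be shared, so the counts carry this uncertainty. The copy of Fth1, Gm6977, had 90.5% identity and drew 27163 counts in LPS and 5827 in saline, or 9.46% and 9.73% of those of Fth1. The 11 copies of Ftl1 in the count table together drew 3959 counts in LPS and 1781 in saline, or 9.60% and 8.27% of those of Ftl1.

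**Figure D2:**
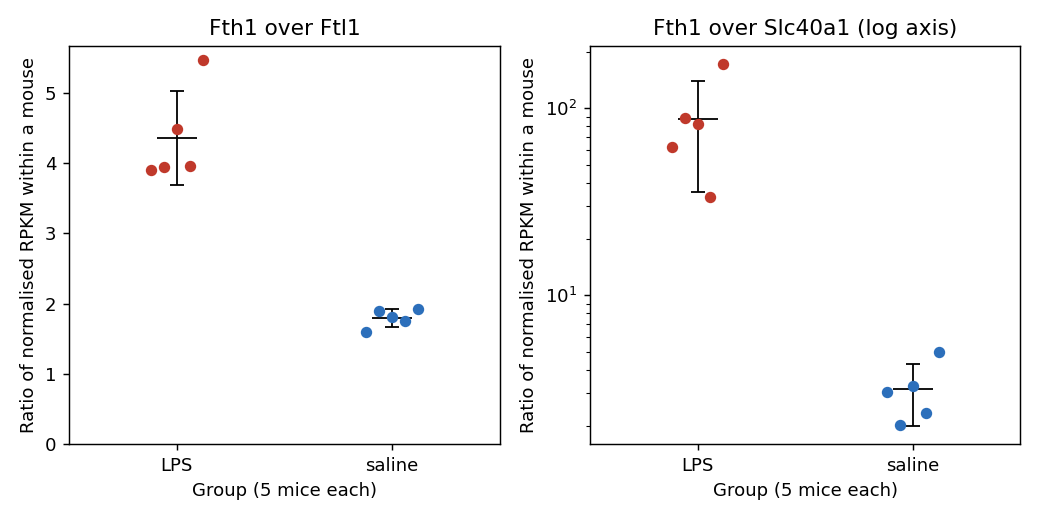
Ratios of deposited normalised RPKM within each mouse, LPS left of saline, 5 mice per group. The left panel shows Fth1 over Ftl1 on an axis that starts at 0, with LPS at 3.91 to 5.47 and saline at 1.59 to 1.93, and the right panel Fth1 over Slc40a1 on a log axis, with LPS at 33.4 to 173 and saline at 2.03 to 4.97. The gap in the right panel follows from the separate gaps of Fth1 and Slc40a1.

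The upstream sequences of both ferritin genes are shown because the genes moved the same way. They are the 120 bases before the transcription start in RefSeq (GRCm38.p6), written 5′ to 3′ on the gene's strand, with CCAAT boxes and GC boxes in capitals in either orientation.
Fth1, chr19:9982526-9982645, plus strand: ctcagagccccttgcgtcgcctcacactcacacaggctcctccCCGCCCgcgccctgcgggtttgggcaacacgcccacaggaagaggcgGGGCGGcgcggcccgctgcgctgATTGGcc
Ftl1, chr7:45459887-45460006, minus strand: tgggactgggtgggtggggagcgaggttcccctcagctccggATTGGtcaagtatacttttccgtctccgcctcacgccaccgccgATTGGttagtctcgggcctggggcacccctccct

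In the 250 bases upstream, searched on both strands, the window of transcript Fth1-201 held 1 CCAAT box (letters CCAAT) and 3 GC boxes (letters GGGCGG), and that of Ftl1 held 2 CCAAT boxes and 1 GC box. Of 32851 promoter windows of this length, 33.8% held a CCAAT box and 32.7% a GC box, so these matches are common. The core of the antioxidant response element (letters TGACNNNGC), which 10.2% of windows held, had no match in the 8 windows of the 6 members with an entry, which were Fth1, Ftl1, Tfrc, Slc11a1, Ireb2 and Aco1. At this share, so few windows of 250 bases cannot show that a gene lacks the element. A second RefSeq window of Fth1, for a start at position 9980600, held no CCAAT box and no GC box, and 1 TATA box (letters TATAA), which 22.8% of windows held. Promoters of Slc40a1, Slc11a2 and Hmox1 are not shown here.

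Slc40a1 (Entrez gene 53945, chromosome 1, 45908070 to 45926532) encodes ferroportin, the iron exporter of the cell surface. It had 136, 75.7, 125, 228 and 101.4 CPM in LPS mice 1 to 5, against 647, 879, 669, 678 and 495 CPM in saline mice. The highest LPS mouse lay below the lowest saline mouse. The mean was 133 ± 57.7 CPM in LPS and 674 ± 137 CPM in saline, or 5.05-fold lower (-2.34 ± 0.29 on the log2 scale, edgeR adjusted p = 9.04e-06), and the log2 fold change stayed between -2.62 and -2.19 with any 1 mouse left out and was -2.21 with the length trend removed. Mouse numbers in the labels fall into 3 ranges, and within them the saline over LPS ratio of mean CPM was 7.21 for the lowest numbers (2 mice of each group), 5.37 for the middle numbers (1 LPS and 2 saline mice) and 3.01 for the highest (2 LPS mice and 1 saline mouse).

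Storage and export RNA stood in a different proportion in the 2 groups. The RPKM ratio of Fth1 to Slc40a1 was 61.8, 88.5, 82.0, 33.4 and 173 in LPS mice 1 to 5, against 3.06, 2.03, 3.28, 2.36 and 4.97 in saline mice. The mean was 87.6 ± 52.1 in LPS and 3.14 ± 1.14 in saline. The lowest LPS mouse was above the highest saline mouse. That gap had to follow, because Fth1 was higher and Slc40a1 lower in every LPS mouse, so it restates those 2 results and adds none. The groups of Fth1, Ftl1 and Slc40a1, which all carry the hairpin in the 5′ UTR, did not overlap, with Slc40a1 opposite in direction to both ferritin genes. Of 4 other genes with this hairpin in the 5′ UTR that matched the count table by name, 2 were tested and neither was called: Alas2, the erythroid enzyme that starts haem synthesis, was at 0.685 CPM in LPS and 0.729 CPM in saline, and Wdfy1 at 66.8 and 79.5 CPM. Ftl1-ps1, a copy of Ftl1 that also carries the hairpin, did not match by name and was left out. It drew 22 counts in LPS and 18 in saline.

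Tfrc (Entrez gene 22042, chromosome 16, 32608896 to 32632794), the transferrin receptor that imports iron, did not differ detectably. It had 9.45, 24.7, 13.4, 7.35 and 12.1 CPM in LPS mice 1 to 5, against 11.1, 14.6, 12.5, 13.5 and 10.7 CPM in saline mice. LPS mice lay both above and below the narrow range of saline mice. The mean was 13.4 ± 6.75 CPM in LPS and 12.5 ± 1.65 CPM in saline (log2 fold change 0.10 ± 0.30, edgeR adjusted p = 0.773), from 113 to 322 raw counts in LPS and 150 to 217 in saline. The sign rested on LPS mouse 2, without which the log2 fold change was -0.23, and with the length trend removed it was 0.45. Of 17 tested genes other than Tfrc with such a hairpin in the 3′ UTR, 5 were called higher and 7 lower, where 22.4% and 22.5% of all genes tested were.

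Slc11a1 (Entrez gene 18173, chromosome 1, 74375014 to 74386057) encodes a metal transporter of the phagosome membrane that limits iron for engulfed bacteria. It had 488, 681, 580.5, 583 and 626 CPM in LPS mice 1 to 5, against 329, 387, 388, 427 and 418 CPM in saline mice. All LPS mice lay above all saline mice by a small margin. The mean was 592 ± 71.0 CPM in LPS and 389.7 ± 38.3 CPM in saline, a 1.52-fold higher level (log2 fold change 0.60 ± 0.10, edgeR adjusted p = 0.00226, and 0.51 with the length trend removed).

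Slc11a2 (Entrez gene 18174, chromosome 15, 100387898 to 100424209) encodes the divalent metal transporter that carries iron out of endosomes. It had 123, 118, 90.7, 67.4 and 58.2 CPM in LPS mice 1 to 5, against 64.9, 74.8, 62.3, 68.6 and 50.6 CPM in saline mice. LPS mice 1, 2 and 3 lay above all saline mice, and LPS mice 4 and 5 lay within the saline range. The mean was 91.4 ± 29.0 CPM in LPS and 64.3 ± 8.99 CPM in saline (log2 fold change 0.51 ± 0.23, edgeR adjusted p = 0.0519), just short of the threshold. It was called at 0.60 without LPS mouse 4 (edgeR adjusted p = 0.0188), at 0.65 without LPS mouse 5 (0.0128), at 0.56 with the range of mouse numbers as a term (0.00568) and at 0.94 with the length trend removed (0.00287). The LPS over saline ratio of mean CPM was 1.72 for the lowest numbers (2 mice of each group), 1.39 for the middle numbers (1 LPS and 2 saline mice) and 1.24 for the highest (2 LPS mice and 1 saline mouse).

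Hmox1 (Entrez gene 15368, chromosome 8, 75093618 to 75100593) encodes haem oxygenase 1, which opens the haem ring and frees its iron. It had 126, 129.6, 149.5, 121 and 159 CPM in LPS mice 1 to 5, against 24.2, 39.8, 48.8, 8.67 and 54.5 CPM in saline mice. The LPS mice lay close together, and the saline mice were spread widely below them. The mean was 137 ± 16.2 CPM in LPS and 35.2 ± 18.7 CPM in saline, a 3.90-fold higher level (log2 fold change 1.96 ± 0.49, edgeR adjusted p = 0.00045), and the coefficient of variation was 11.9% in LPS and 53.2% in saline. Without saline mouse 4, the lowest, the log2 fold change was 1.70, and with the length trend removed 1.60.

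Aco1 (Entrez gene 11428, chromosome 4, 40143265 to 40199009) encodes iron regulatory protein 1, which is an aconitase enzyme while it holds an iron-sulphur cluster. It had 39.5, 31.8, 45.8, 37.2 and 24.7 CPM in LPS mice 1 to 5, against 59.8, 69.8, 55.0, 57.6 and 56.7 CPM in saline mice. All LPS mice lay below all saline mice. The mean was 35.8 ± 7.97 CPM in LPS and 59.8 ± 5.88 CPM in saline, or 1.67-fold lower (-0.74 ± 0.16 on the log2 scale, edgeR adjusted p = 0.00195, and -0.48 with the length trend removed).

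Ireb2 (Entrez gene 64602, chromosome 9, 54862658 to 54912534) encodes iron regulatory protein 2, which is degraded when iron is plentiful. It had 36.1, 45.6, 40.4, 59.7 and 40.1 CPM in LPS mice 1 to 5, against 57.6, 68.9, 51.8, 75.6 and 57.0 CPM in saline mice. LPS mouse 4 lay above 3 saline mice, and the other LPS mice lay below all of them. The mean was 44.4 ± 9.22 CPM in LPS and 62.2 ± 9.73 CPM in saline, or 1.40-fold lower (-0.49 ± 0.16 on the log2 scale, edgeR adjusted p = 0.0229). Ireb2 is longer than 89.4% of genes by relative length, and with the length trend removed no difference was called (log2 fold change -0.04, edgeR adjusted p = 0.782). The call was also lost without LPS mouse 1 (-0.41, edgeR adjusted p = 0.0548), LPS mouse 3 (-0.45, 0.0599), saline mouse 2 (-0.44, 0.0577) or saline mouse 4 (-0.41, 0.0637).

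**Figure D3:**
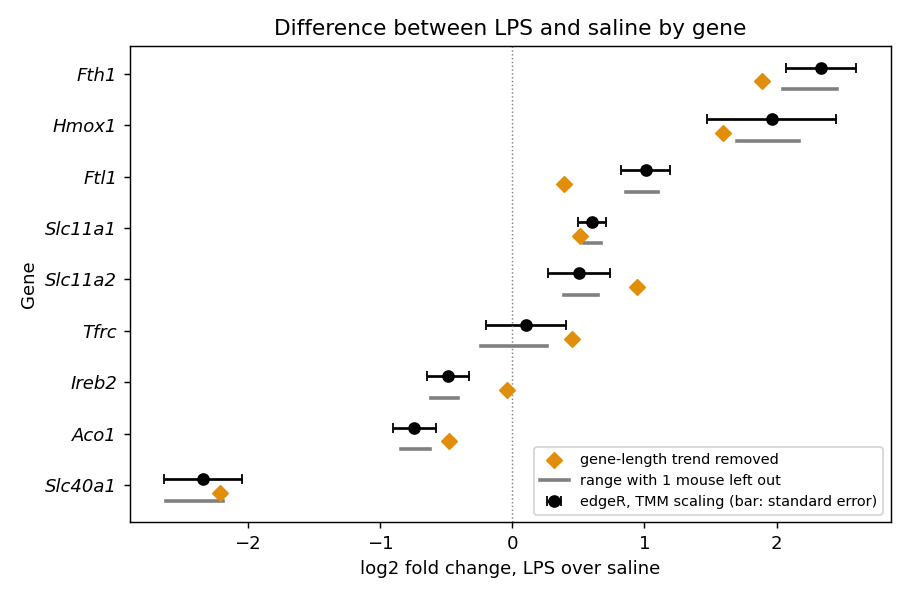
Log2 fold change of each iron gene, LPS over saline, on the horizontal axis, with genes in order of it. Black points are the edgeR value, and the bars around them the standard error of the difference of mean log2 CPM, a separate estimate. Orange diamonds are the value with each library's gene-length trend removed, and grey lines the range with 1 mouse left out. Ftl1 drops to 0.39 and Ireb2 to -0.04 with the length trend removed, while Slc40a1 stays at -2.21.

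Levels of different genes are set side by side in RPKM. Dividing by length does not remove the length trend that differed between the groups, so orders and ratios across genes of unlike length carry this limit. In LPS the mean RPKM was 2926 ± 1274 for Fth1, 653 ± 169 for Ftl1, 233 ± 28.8 for Slc11a1, 87.9 ± 10.8 for Hmox1 and 38.4 ± 16.1 for Slc40a1. Slc11a2 (14.02 ± 4.53), Aco1 (8.38 ± 1.83), Ireb2 (6.01 ± 1.18) and Tfrc (2.63 ± 1.34 RPKM) followed. In this order Slc11a2 and Aco1 overlapped between mice, as did Aco1 and Ireb2, and all other neighbours were apart. In saline the mean RPKM was 569 ± 102 for Fth1, 317 ± 52.0 for Ftl1, 191 ± 39.5 for Slc40a1, 149.9 ± 14.4 for Slc11a1 and 22.3 ± 12.01 for Hmox1. Aco1 (13.7 ± 1.43), Slc11a2 (9.63 ± 1.33), Ireb2 (8.25 ± 1.19) and Tfrc (2.39 ± 0.315 RPKM) came next. There Ftl1 overlapped with Slc40a1, Slc40a1 with Slc11a1, Hmox1 with Aco1 and Slc11a2 with Ireb2. Fth1 was thus the highest and Tfrc the lowest of the 9 in both groups, and Slc40a1 stood in place 5 in LPS and in place 3 in saline. The RPKM ratio of Ireb2 to Aco1 overlapped between groups, at 0.511 to 0.940 in LPS and 0.546 to 0.761 in saline, and so did that of Slc11a1 to Slc11a2, at 10.2 to 27.6 in LPS and 12.996 to 21.2 in saline.

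Of 94 other genes of iron and haem handling in the count table, listed by function, 72 were tested with a median log2 fold change of 0.26: 27 rose in LPS, 6 fell and 39 were not called, where 22.4% of all genes tested were called higher and 22.5% lower. These shares are the background of each list count below, and nothing is read from a count about its list. Among iron carriers, receptors and ferrireductases, 7 of 9 tested genes rose and none fell. Trf, which encodes transferrin, the iron carrier of plasma that glia also make, had 6822 ± 1094 CPM in LPS and 3432 ± 331 CPM in saline (log2 fold change 0.99 ± 0.13, edgeR adjusted p = 0.000104). Slc39a14, an importer of iron that is not bound to transferrin, had 72.6 ± 23.5 CPM in LPS and 8.03 ± 2.10 CPM in saline (3.18 ± 0.26, edgeR adjusted p = 3.49e-07). Neither group overlapped with the other for these genes. Lcn2, which encodes lipocalin 2, a protein that captures bacterial iron carriers, had 26.9, 65.7, 208, 306 and 557 CPM in LPS mice 1 to 5 and 0 to 1.35 CPM in saline mice (8.29 ± 1.001, edgeR adjusted p = 6.48e-06, and 7.68 without LPS mouse 5). The summed neutrophil markers in the same LPS mice were 2.01, 7.53, 5.67, 32.4 and 21.8 CPM, and their part in the rise of Lcn2 was not tested. Chosen after their values were seen, Slc22a17, a receptor for lipocalin 2, had 94.6 ± 27.1 CPM in LPS and 47.3 ± 4.61 CPM in saline, and Steap3, an endosomal ferrireductase, 8.27 ± 2.63 and 3.72 ± 0.877 CPM, both called higher.

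Of the hepcidin pathway, by which the liver governs ferroportin, 2 of 8 genes were tested, Neo1 and Smad4, and neither was called. Neo1, a co-receptor of that pathway, had 1.83 ± 1.54 CPM in LPS and 3.76 ± 0.786 CPM in saline (log2 fold change -1.04 ± 0.44, edgeR adjusted p = 0.0682). LPS mouse 1 stood within the saline range, and without it Neo1 was called lower (-1.67, edgeR adjusted p = 0.00216). It was also called lower with ranges of mouse numbers as a term (-1.12, edgeR adjusted p = 0.0441), with library size only (-1.14, edgeR adjusted p = 0.0462) and by limma-voom (-1.31, adjusted p = 0.0161). Smad4 had 31.5 ± 14.6 CPM in LPS and 32.5 ± 2.64 CPM in saline. Of 11 tested genes of haem uptake, transport and breakdown, 3 rose and 1 fell. The biliverdin reductases, which act on the product of haem oxygenase, were both higher: Blvra had 155 ± 28.3 CPM in LPS and 91.8 ± 18.6 CPM in saline (0.76, edgeR adjusted p = 0.00233, and 0.34 with the length trend removed), and Blvrb 56.5 ± 22.1 and 26.4 ± 5.49 CPM (1.10, edgeR adjusted p = 0.00201, and 0.46 with the length trend removed). Hp, which encodes haptoglobin, the haemoglobin-binding protein of plasma, had 0.753, 5.15, 12.97, 47.3 and 98.4 CPM in LPS mice 1 to 5 and 0.339 to 1.65 CPM in saline mice (4.99 ± 1.24, edgeR adjusted p = 0.000903). LPS mouse 1 overlapped with saline, the log2 fold change was 4.01 without LPS mouse 5, and limma-voom did not call Hp (adjusted p = 0.107). The gene that fell, Lrp1, a receptor for haem bound to haemopexin, had 195 ± 40.1 CPM in LPS and 299.5 ± 72.1 CPM in saline, and changed sign with the length trend removed (-0.62 and 0.08).

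Of 10 tested genes of iron chaperones, ferritin turnover and mitochondrial import, 3 fell and 3 rose. Ncoa4, the receptor that brings ferritin to the lysosome, had 2.05 ± 0.596 CPM in LPS and 7.94 ± 1.30 CPM in saline (log2 fold change -1.95 ± 0.20, edgeR adjusted p = 4.57e-05). Herc2, a ubiquitin ligase that acts on Ncoa4, had 96.7 ± 15.6 CPM in LPS and 220.4 ± 35.1 CPM in saline (-1.19 ± 0.14, edgeR adjusted p = 3.44e-05, and -0.45 with the length trend removed). Slc25a37, the mitochondrial iron importer mitoferrin 1, had 68.9 ± 17.4 CPM in LPS and 159 ± 27.6 CPM in saline (-1.21 ± 0.20, edgeR adjusted p = 0.000148). For each of these 3 genes all LPS mice lay below all saline mice. Those that rose, named after their values were seen, were Pcbp1, a chaperone that hands iron to ferritin, Cisd1, an iron-sulphur protein of the mitochondrial surface, and Sfxn1. Their log2 fold changes were 0.62, 0.76 and 0.50, and those of Pcbp1 (0.27) and Cisd1 (0.15) were not called once the length trend was removed. Sfxn1 was not called without LPS mouse 3 (0.47), LPS mouse 5 (0.44) or saline mouse 4 (0.46), nor with library size only (0.41).

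In haem synthesis, 3 of 9 tested genes rose and 1 fell: Alad, an early enzyme, had a log2 fold change of 0.71 ± 0.15, Urod 0.60 ± 0.17 and Ppox, a late enzyme, -0.53 ± 0.14 (edgeR adjusted p = 0.00259, 0.0103 and 0.0101), and Urod lost its call with the length trend removed (0.08). In iron-sulphur cluster assembly, 8 of 23 tested genes rose and none fell, where 22.4% and 22.5% of all genes tested did, with a median of 0.33. Fam96a, of the cytosolic assembly machinery, which in mammals acts on iron regulatory protein 1, had 275 ± 74.9 CPM in LPS and 79.1 ± 19.6 CPM in saline (1.80 ± 0.25, edgeR adjusted p = 2.14e-05). Nubp2 (0.86 ± 0.11, and 0.44 with the length trend removed) and Ciapin1 (0.81 ± 0.07), of the same machinery, were higher in all LPS mice too. The other 5 risen genes of this list, Glrx5, Isca2, Nfu1, Bola3 and Fdxr, named after their values were seen, lost their calls once the length trend was removed. Over all alternatives, Bola3 lost its call in 12 of 22 and Glrx5 in 8 of 22, against 1 of 22 for each of Isca2, Nfu1 and Fdxr. Of 8 tested transcription regulators, 3 rose and 1 fell: Keap1 had a log2 fold change of 0.60 ± 0.16, Mafg 0.67 ± 0.26 and Hif1a -0.53 ± 0.11 (edgeR adjusted p = 0.00923, 0.0238 and 0.0061). Mafg lost its call without LPS mouse 5 (0.57), saline mouse 2 (0.61) or saline mouse 3 (0.62). It also lost it with library size only (0.59) and with the length trend removed (0.30). Hif1a lost its call with the length trend removed (-0.20). Mafk, which also rose and was named after its values were seen, lost its call in 11 of 22 alternatives. Nfe2l2 and Bach1, which activate and repress Hmox1 and ferritin genes and were named after their values were seen, were not called: Nfe2l2 had 657 ± 89.9 CPM in LPS and 544 ± 28.1 CPM in saline (edgeR adjusted p = 0.0949), and Bach1 41.3 ± 6.15 and 44.5 ± 7.21 CPM (edgeR adjusted p = 0.582).

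**Figure D4:**
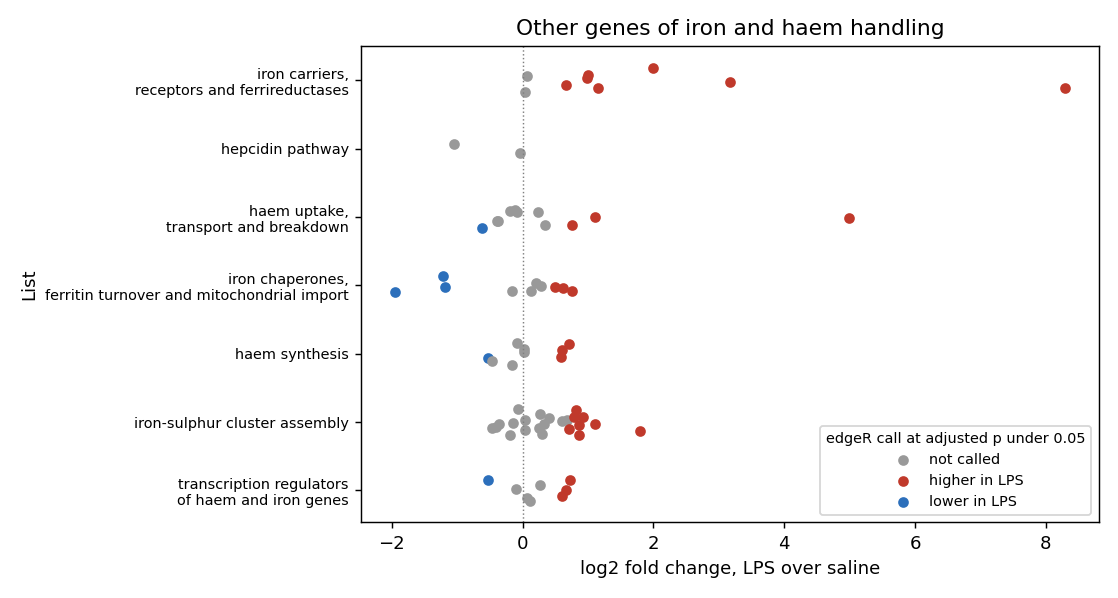
Log2 fold change, LPS over saline, of 72 other tested genes of iron and haem handling, 1 point per gene, in rows by list, with red for genes called higher in LPS, blue for lower and grey for not called. Carriers and iron-sulphur assembly hold no gene called lower, and the blue points farthest left are 3 genes of ferritin turnover and mitochondrial import.

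The genes whose profile over the 10 mice came nearest to that of each member were ranked among 9790 genes by the root mean square difference of centred log2 CPM, as a description of these libraries. Nearest to Fth1 was its own copy Gm6977 (0.0746 log2 units), followed by Sepw1 (0.178). Ftl1 lay nearest to Tmbim4 (0.0569) and Taldo1 (0.0626), Slc11a1 to Nt5c3 (0.0937) and Ppp5c (0.0975), and Slc40a1 to Sv2a (0.218) and S1pr1 (0.278). Ireb2 lay nearest to Arhgap39 (0.0672) and Nf2 (0.0731), Aco1 to Smarcal1 (0.0878) and Lrrc40 (0.110), Slc11a2 to Zdhhc6 (0.159) and Srfbp1 (0.161), and Tfrc to Bri3bp (0.168) and Septin11 (0.202). Hmox1 lay nearest to Bcl2a1a, at 0.545 log2 units. Such distances depend on how far a member itself varied, so those of different members are not directly comparable. The root mean square of a member about its own mean was 1.30 log2 units for Hmox1 and 1.28 for Slc40a1, against 0.428 for Tfrc and 0.401 for Slc11a2.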

How the data were processed

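RNA of sorted microglia was measured in 10 libraries, 1 per mouse. The authors deposited raw counts per gene, and a table of normalised RPKM of unknown scaling. The submitters' processing notes name featureCounts, GRCm38 and mm10. How reads were aligned and whether strand was used were not given in the sources used here. Per the labels' protocols, RNA went through an amplification, and no molecular identifiers are named, so counts may include PCR copies, and antisense or overlapping genes cannot be told apart. From the count table, 1 unnamed row was left out and 15 names that had become dates were restored from Entrez IDs, of which 37659 matched RefSeq GRCm38.

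The count table was fitted with edgeR 4.0.16 under R 4.3.3 (TMM factors, filterByExpr, quasi-likelihood F test, Benjamini-Hochberg over all genes, threshold 0.05). The fit was also run on simulated counts with few or no genes changed and no length trend. Such counts differ from these data, where 45.0% of genes were called, so they do not test the fit under these conditions. Standard errors belong to the difference of mean log2 CPM with a prior count of 2, and are printed beside the edgeR log2 fold change, a separate estimate. That difference was 2.20 for Hmox1 and 3.55 for Hp, where edgeR gave 1.96 and 4.99. Single values used exact two-sided permutation tests (Python 3.11.15, scipy 1.17.1). Ferritin copies had at least 85% identity over at least 50% of the transcript. Members and gene lists were chosen with earlier results of these data known. Named were all members, the 3 called genes of each list with the smallest adjusted p (or, in a list with no call, the 2 of highest mean), the 2 highest of each marker list and the 2 nearest profiles of each member. Alternatives were other scalings and filters, DESeq2 1.42.0, limma-voom (limma 3.58.1), ranges of mouse numbers as a term, limma on log2(RPKM + 1) or log2(RPKM + 0.1) with a mean of at least 1 RPKM or no filter, ferritin copies summed, the gene-length trend removed, and each mouse left out. Some genes that the rule names are not reported here.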

Additional observations from a re-analysis of the deposited data

Results flagged for a closer look

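Mice that stood far from the others of their group were looked for in the members and in the other iron genes that were called or named, over 88 groups of 5 mice and 44 genes, where chance marks about 1 group in 20. There were 5 such values, and none was found for a member. Neo1 was at 4.52 CPM in LPS mouse 1 and at 0.783 to 1.61 CPM in the other LPS mice. Smad4 was at 37.1 CPM in saline mouse 4 and at 30.6 to 32.1 CPM in the others, and Lrp1 was at 424 CPM in the same mouse and at 248 to 295 CPM in the others. Pcbp1, an iron chaperone, was at 55.9 CPM in saline mouse 5 and at 30.5 to 33.5 CPM in the others. Sfxn1, a carrier of the inner mitochondrial membrane, was at 40.2 CPM in LPS mouse 4 and at 70.7 to 81.7 CPM in the other LPS mice.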

How the results depend on the processing

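No paired analysis was possible because the labels share no replicate numbers between LPS and saline mice. Over the 9 members and the counts of calls, 317 of 332 alternative values were rated as kept. For a log2 fold change this meant the same direction and the same side of the threshold. For a count of calls it meant only a similar size, so members called higher could be 4 or 5 and lower 2 or 3. Fth1, Ftl1, Slc40a1, Slc11a1, Hmox1 and Aco1 kept direction and side of the threshold under every alternative run. Tfrc changed sign under limma-voom (-0.0207) and ranged from -0.23 to 0.27 with 1 mouse left out. Slc11a2 passed the threshold with RLE factors (0.54), a minimum of 1 CPM in 5 libraries (0.52), DESeq2 (0.54), ranges of mouse numbers as a term (0.56) and the length trend removed (0.94), and ranged from 0.39 to 0.65 with 1 mouse left out. Ireb2 did not pass with the length trend removed (-0.0427), and ranged from -0.61 to -0.41 with 1 mouse left out. Of the other iron genes, 10 were called lower when only library size was used, against 6. Among single genes, the length trend turned Smad4 (0.067) and Lrp1 (0.0833), Smad4 ranged from -0.31 to 0.15 with 1 mouse left out, and the astrocyte marker difference from -1.24 to 0.025 CPM. The cause of these changes was not tested. The median of all genes moved by -0.087 on the log2 scale with library size only, and by less with the other scalings. At this depth Tfrc rested on 113 to 322 counts in LPS and 150 to 217 in saline, which limits the precision of its difference.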
